A study of Mus musculus with 2 samples.

Results

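The 40 genes described here belong to the amino acid response that the transcription factor ATF4 governs, and 12 of them encode tRNA synthetases. The list of 40 was chosen with earlier results of these data known, so its comparison with all genes is a description only. The genes were taken from it by symbol, out of 24532 genes in the count table. All 40 were found there and in the TPM tables, and all 40 passed the filter on low values. They fall into 7 factors and regulators, 7 enzymes of asparagine, serine and one-carbon metabolism, 6 enzymes of proline, transsulfuration and other pathways (with *Vldlr*), 8 amino acid transporters or their subunits, and 12 tRNA synthetases.

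ATF4 is a basic leucine zipper protein whose translation increases when the initiation factor eIF2 is phosphorylated by a stress kinase, for example the amino acid sensor GCN2. It binds, often with a C/EBP partner, to short DNA elements near genes for amino acid synthesis, amino acid import and tRNA charging. The response matters to fibroblasts because collagen chains are rich in glycine and proline, which the cell imports or makes through enzymes on this list.

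The cells were cardiac myofibroblasts, the matrix-producing cells of the injured heart, isolated from C57BL/6 mice 3 days after myocardial infarction. The study cultured cells left after removal of CD45+ leukocytes, and nearly all stained for α-smooth muscle actin. One culture received 12.5 nM of a control siRNA (siCtrl) and the other 12.5 nM of a single siRNA against *Vgll3* (si*Vgll3*), both by lipofection, and RNA was collected after 72 h. Each condition has 1 library, so the differences below rest on single libraries and carry no p-value. An effect of *Vgll3* loss, an off-target effect of that siRNA and a difference between these cultures cannot be told apart.

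The siCtrl library held 140815237 reads assigned to genes and the si*Vgll3* library 125789276. Levels are given in TPM, which is scaled for gene length and library size. M is the log2 ratio of TPM in si*Vgll3* to TPM in siCtrl, and A is log2 of the mean TPM of both libraries. A gene is called lower at M below −0.5 and higher at M above 0.5, each with A above 0. Square brackets hold the 95% Clopper-Pearson interval of M from the read counts. It covers counting error only, since reads are not independent molecules, and it compares the libraries rather than the conditions. *Vgll3* was at 202 TPM in siCtrl against 84.0 TPM in si*Vgll3*, an M of −1.27 [−1.29, −1.24]. All 12 fibroblast and myofibroblast markers had A above 0, with summed levels of 25033 TPM and 22029 TPM, with members in both directions, 6 lower, 2 higher and a median M of −0.39. *Postn* was at −1.22, *Col1a1* at −0.90, *Col3a1* at −0.86 and *Pdgfrb* at −0.74, while *Thy1* was at 0.72 and *Tagln* at 0.52. Summed levels in siCtrl and si*Vgll3* were 15.7 and 14.4 TPM for 10 leukocyte markers, and 7.72 and 9.43 TPM for 6 endothelial markers. The leukocyte markers differed in opposite directions, since *Lyz2* was at 10.9 and 3.13 TPM, an M of −1.80, and *Cd53* at 0.760 and 5.91 TPM, an M of 2.96, with *Csf1r* at 0.50 and *Cd14* at 0.62. *Ptprc*, which encodes CD45, and *Adgre1* were at 0 reads in both libraries. Among 8 cardiomyocyte markers, 6 had 0 reads in both libraries, and the summed level of 60.0 and 10.4 TPM was that of *Tnnt2* alone. The part of these markers in the results below was not tested. In bulk RNA, fewer cells with a transcript and less of it per cell cannot be told apart.

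As a group, the ATF4 genes were somewhat lower in si*Vgll3*, and the synthetases differed less than the rest. Of the 40 genes, 11 were called lower and 0 were called higher, while among all 11754 genes at A > 0, 11.4% were lower and 5.73% were higher. The median M of the 40 genes was −0.24, against −0.05 over all genes. In all, 36 of the 40 had M below 0, against 57.0% of all genes. The whole interval lay below −0.5 for 10 of the 40, against 8.31% of all genes. *Cbs* was the lower gene whose interval crossed −0.5. *Atf4* was the called gene nearest to the threshold, at an M of −0.56, and *Phgdh* was the nearest gene outside it, at −0.49. Together the 40 genes made up 0.545% of all TPM in siCtrl and 0.463% in si*Vgll3*.

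**Figure D1:**
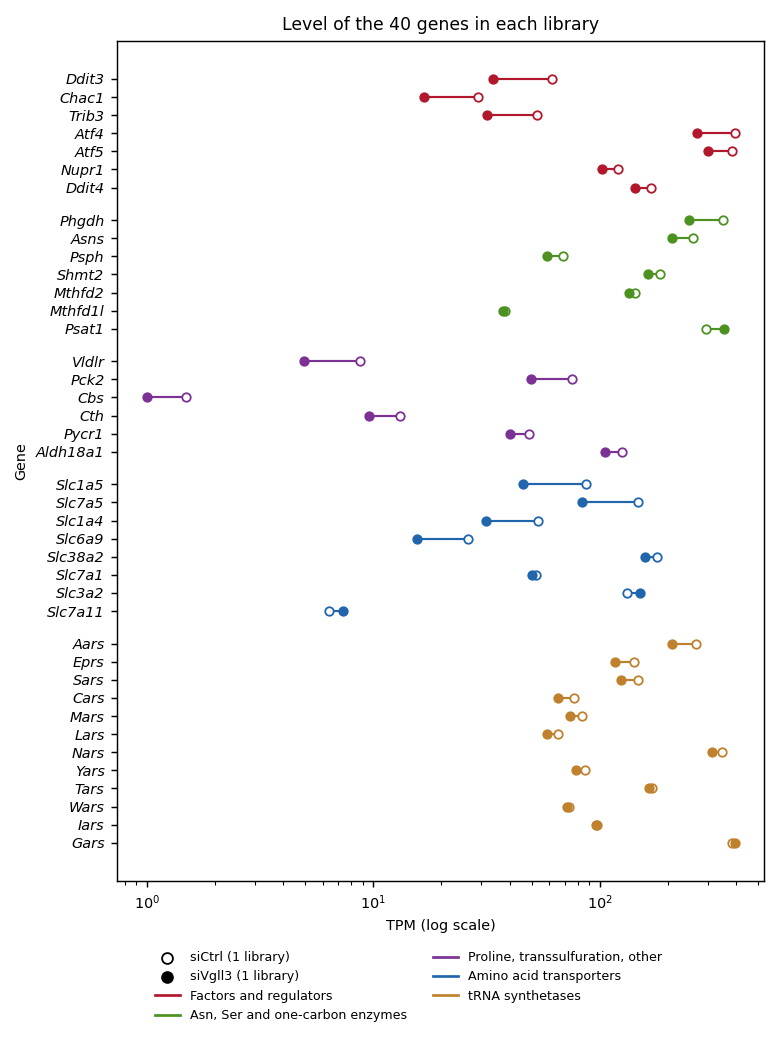
TPM of each of the 40 genes (x axis, log scale) in siCtrl (open circles) and si*Vgll3* (filled circles), 1 library each and so without error bars, with genes grouped by role and ordered by M. *Atf4* moved from 395 to 269 TPM and *Slc1a5* from 86.8 to 45.7 TPM, while *Psat1*, *Slc3a2*, *Slc7a11* and *Gars* had the higher value in si*Vgll3*.

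Promoters of some of the 40 genes hold the core of the element through which ATF4 is known to act. The C/EBP-ATF response element has the core TGATGNAA, where N is any base, and it was searched on both strands of RefSeq promoters (GRCm38.p6), from 250 bases before to 50 bases after each start site. A promoter was listed for 33 of the 40 genes, and 14 of these 33 (42.4%) held the core. Of all 27025 genes with a listed promoter, 4.51% held it, as did 2.64% of the 9363 with a promoter and A > 0. Promoters were not listed for *Cars*, *Cth*, *Lars*, *Nars*, *Slc1a5*, *Slc7a5* and *Wars*. The 14 genes had 16 cores, of which 11 read TGATGCAA, 3 read TGATGAAA, 2 read TGATGTAA and 0 read TGATGGAA. A match is a description of the sequence and was not tested for binding in these cells. The 40 genes were listed as part of the ATF4 response, so their share with the core is not independent of that choice.

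The first set below is from genes called lower in si*Vgll3*, shown because they are the lower genes with a core in a listed promoter. Each line gives 30 bases on the strand on which the core reads TGATGNAA, with the core in capitals.
*Chac1* (chr2:119351038-119351067, minus strand): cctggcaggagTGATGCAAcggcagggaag
*Vldlr* (chr19:27216809-27216838, minus strand): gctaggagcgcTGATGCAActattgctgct
*Slc1a4* (chr11:20332699-20332728, plus strand): caggctggagaTGATGCAAcgcaggaggca
*Trib3* (chr2:152344028-152344057, plus strand): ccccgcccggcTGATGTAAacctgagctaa
*Pck2* (chr14:55540152-55540181, minus strand): ctgtaagatacTGATGTAActttgaaggct

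The second set is from some of the genes with the same core whose M lay between −0.31 and 0.21, shown to set beside the first. *Pycr1*, *Nupr1* and *Yars*, at −0.28, −0.24 and −0.13, also lay in this range and are not shown. *Aars*, which had 2 cores, lay outside this range at −0.36, was not called lower and is not shown either.
*Asns* (chr6:7693214-7693243, minus strand): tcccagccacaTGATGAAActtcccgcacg
*Tars* (chr15:11399655-11399684, plus strand): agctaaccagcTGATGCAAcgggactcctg
*Iars* (chr13:49682126-49682155, minus strand): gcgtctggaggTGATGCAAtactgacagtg
*Gars* (chr6:55037960-55037989, minus strand): cgcccggtgcaTGATGAAAtagcgcagcca
*Slc7a11* (chr3:50443642-50443671, plus strand): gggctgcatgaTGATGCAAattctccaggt
*Slc7a11* (chr3:50443661-50443690, minus strand): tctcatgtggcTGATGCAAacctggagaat

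Genes called lower were found both with and without the core. Of the 14 genes with it, 5 were called lower and the median M was −0.29, with a range from −0.82 to 0.21. Of the 19 with a listed promoter and no core, 4 were called lower and the median M was −0.24, with a range from −0.86 to 0.26. Sequence outside the searched stretch was not looked at, so genes without a core there may hold one elsewhere. Over all genes with A > 0 and a listed promoter, 14.6% of 247 with the core and 10.4% of 9116 without it were lower, with medians of −0.07 and −0.04. *Vldlr*, *Chac1*, *Slc1a4*, *Yars* and *Tars* share the same 9 letters, TGATGCAAC, and stood at an M of −0.82, −0.79, −0.77, −0.13 and −0.04.

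All 7 factors and regulators had lower TPM in si*Vgll3*, with a median M of −0.56. Of the 7, 4 (57.1%) were called lower, against 11.4% of all genes at A > 0. *Atf4* (NCBI gene 11911, chromosome 15, 80255184 to 80257545) was the most abundant of the 40 genes in siCtrl, at 395 TPM. In si*Vgll3* it was at 269 TPM, an M of −0.56 [−0.58, −0.54] and 68.0% of the control value. *Atf4* mRNA is not a measure of ATF4 protein, which is set largely by translation. *Atf5*, which encodes a related factor that is also translated under stress, was at 386 TPM in siCtrl against 301 TPM in si*Vgll3*. Its M was −0.36 [−0.38, −0.34], inside the threshold.

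*Ddit3*, *Chac1* and *Trib3* had the lowest values among the regulators. *Ddit3* (chromosome 10, 127290793 to 127296291) encodes CHOP, a factor that dimerises with C/EBP proteins and promotes cell death under long stress. It was at 61.3 TPM in siCtrl against 33.8 TPM in si*Vgll3*, an M of −0.86 [−0.94, −0.78]. *Chac1* encodes an enzyme that degrades glutathione, and it was at 28.9 TPM and 16.7 TPM, an M of −0.79 [−0.88, −0.70]. *Trib3* encodes a pseudokinase that binds ATF4 and restrains it. It was at 53.0 TPM and 31.7 TPM, an M of −0.74 [−0.80, −0.68]. These 3 genes stood at 55.1%, 57.8% and 59.8% of their siCtrl levels, all lower in proportion than *Atf4* itself.

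*Ddit4* and *Nupr1* differed less. *Ddit4*, whose product REDD1 inhibits mTORC1, was at 169 TPM in siCtrl against 143 TPM in si*Vgll3*, an M of −0.24 [−0.27, −0.21]. *Nupr1*, which encodes a small nuclear stress protein, was at 120 TPM and 102 TPM, an M of −0.24 [−0.30, −0.18]. Their intervals lay below 0 and above −0.5.

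Asparagine synthetase and the serine pathway were near or inside the threshold, with 0 of 7 genes called in either direction and a median M of −0.18. Over all genes at A > 0, 11.4% were lower and 5.73% higher, and 0 of 7 is near these shares. *Asns*, which makes asparagine from aspartate and glutamine, was at 258 TPM in siCtrl against 208 TPM in si*Vgll3*, an M of −0.31 [−0.33, −0.29]. Serine is made from a glycolytic intermediate in 3 steps, and the genes for these steps did not share a direction. *Phgdh*, the first step, was at 349 TPM and 249 TPM, an M of −0.49 [−0.51, −0.47]. *Psat1*, the second step, was at 295 TPM and 353 TPM, an M of 0.26 [0.24, 0.28], the highest M of the 40 genes. *Psph*, the last step, was at 68.7 TPM and 58.6 TPM, an M of −0.23 [−0.28, −0.18]. In the annotation, 10.4% of the exon bases of *Psph* overlap *Cct6a* on the opposite strand, and whether the counting used strand is not known. The annotation also limits the *Phgdh* value. Of the 50-base words of its longest coding transcript, 63.1% also occur in transcripts of other genes, mainly in the processed pseudogene *Gm7901*.

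The mitochondrial one-carbon enzymes among the ATF4 genes described here, *Shmt2*, *Mthfd2* and *Mthfd1l*, differed little. *Shmt2*, which turns serine into glycine in mitochondria, was at 185 TPM in siCtrl against 164 TPM in si*Vgll3*, an M of −0.18 [−0.20, −0.15]. *Mthfd2*, which oxidises the folate-bound carbon, was at 143 TPM and 135 TPM, an M of −0.08 [−0.11, −0.05]. *Mthfd1l*, which releases that carbon as formate, was at 38.2 TPM and 37.4 TPM, an M of −0.03 [−0.07, 0.01] whose interval included 0.

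Proline synthesis had values on the lower side, inside the threshold. *Aldh18a1* makes the first committed intermediate from glutamate, and it was at 126 TPM in siCtrl against 106 TPM in si*Vgll3*, an M of −0.24 [−0.27, −0.22]. *Pycr1*, the final step in mitochondria, was at 48.7 TPM and 40.2 TPM, an M of −0.28 [−0.33, −0.22]. *Pck2*, the mitochondrial enzyme that makes phosphoenolpyruvate, was called lower at 75.7 TPM and 49.9 TPM, an M of −0.60 [−0.64, −0.56].

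The transsulfuration genes, which make cysteine from homocysteine, were expressed at low levels. *Cth* was at 13.2 TPM in siCtrl against 9.61 TPM in si*Vgll3*, an M of −0.45 [−0.57, −0.34]. *Cbs* was the least abundant of the 40 genes, at 1.49 TPM from 238 reads and 0.999 TPM from 148 reads. Its M was −0.57 [−0.88, −0.27], and with 1 TPM added to both libraries it was −0.31. Outside *Cbs*, the fewest reads in a library were 1023, for *Cth* in si*Vgll3*. *Vldlr*, which encodes a lipoprotein receptor and is a reported ATF4 target, was called lower at 8.72 TPM and 4.94 TPM, an M of −0.82 [−0.89, −0.75].

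**Figure D2:**
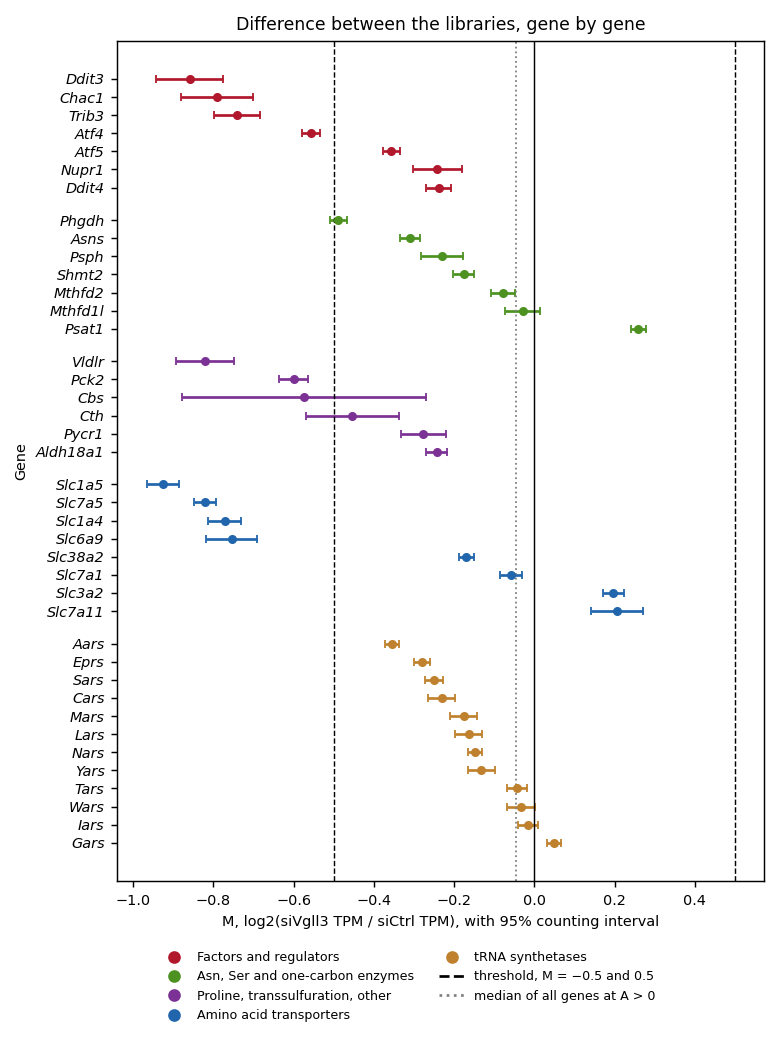
M of each of the 40 genes (x axis, log2 ratio of si*Vgll3* to siCtrl TPM) with its 95% counting interval, with dashed lines at −0.5 and 0.5 and a dotted line at the median of all genes with A > 0. The 11 genes left of −0.5 are 4 regulators, 4 transporters, *Vldlr*, *Pck2* and *Cbs*, and the 12 synthetases lie between −0.36 and 0.05.

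The transporters split into a lower set and a set near 0, with no gene between −0.75 and −0.17. Of 8 genes, 4 (50%) were called lower, against 11.4% of all genes at A > 0. *Slc1a5* (NCBI gene 20514) encodes ASCT2, an exchanger that brings in glutamine, and it had the lowest M of the 40 genes. It was at 86.8 TPM in siCtrl against 45.7 TPM in si*Vgll3*, an M of −0.93 [−0.97, −0.89], or 52.6% of the siCtrl level. *Slc1a4*, which encodes the related exchanger ASCT1 for alanine, serine and cysteine, was at 53.6 TPM and 31.4 TPM, an M of −0.77 [−0.81, −0.73]. *Slc6a9*, which encodes the glycine transporter GLYT1, was at 26.2 TPM and 15.5 TPM, an M of −0.75 [−0.82, −0.69]. In the annotation, 27.8% of the exon bases of *Slc6a9* overlap *Ccdc24* on the opposite strand. *Ccdc24* itself was at 3.92 TPM and 4.69 TPM, and whether the counting used strand is not given in the sources used here.

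*Slc7a5* and *Slc3a2* encode the light and the heavy chain of one transporter of leucine and other large neutral amino acids, and they differed in direction. *Slc7a5* was at 148 TPM in siCtrl against 83.7 TPM in si*Vgll3*, an M of −0.82 [−0.85, −0.79]. *Slc3a2* was at 131 TPM and 151 TPM, an M of 0.20 [0.17, 0.22]. In TPM, *Slc7a5* stood at 1.12 times *Slc3a2* in siCtrl and at 0.555 times in si*Vgll3*. *Slc7a11*, the light chain that pairs with the same heavy chain to import cystine, was at 6.37 TPM and 7.35 TPM, an M of 0.21 [0.14, 0.27].

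The other transporters were close to their siCtrl levels. *Slc38a2*, which encodes the sodium-coupled carrier SNAT2, was at 178 TPM in siCtrl against 158 TPM in si*Vgll3*, an M of −0.17 [−0.19, −0.15]. *Slc7a1*, a carrier of arginine and lysine, was at 52.3 TPM and 50.2 TPM, an M of −0.06 [−0.09, −0.03].

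The 12 tRNA synthetases, which attach amino acids to their tRNAs, differed little between the libraries. None of the 12 was called in either direction, while 11.4% of all genes at A > 0 were lower and 5.73% higher. A count of 0 among 12 genes is near these shares. The median M of the 12 was −0.16, while that of the other 28 genes was −0.33 with 11 called lower. Values of the 12 spanned 0.40 on the log2 scale, against 1.19 for the other 28. Summed over the group, levels were 1938 TPM in siCtrl against 1767 TPM in si*Vgll3*. The interval of M lay below 0 for 9 synthetases, included 0 for 2 and lay above 0 for 1.

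The alanine enzyme *Aars* was the lowest synthetase, at 266 TPM in siCtrl against 208 TPM in si*Vgll3*, an M of −0.36 [−0.37, −0.34]. *Eprs*, which charges both glutamate and proline tRNAs, was at 142 TPM and 117 TPM, an M of −0.28 [−0.30, −0.26]. *Sars*, for serine, was at 148 TPM and 124 TPM, an M of −0.25 [−0.27, −0.23]. In the annotation 14.3% of the exon bases of *Aars* overlap *Exosc6* on the same strand, and *Exosc6* was at 27.1 TPM and 30.9 TPM.

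The middle of the group held *Cars*, *Mars*, *Lars*, *Nars* and *Yars*, for cysteine, methionine, leucine, asparagine and tyrosine. Their M ran from −0.23 for *Cars* through −0.18 for *Mars*, −0.16 for *Lars* and −0.15 for *Nars* to −0.13 for *Yars*. *Nars* was the most abundant of them, at 348 TPM in siCtrl against 314 TPM in si*Vgll3*. The other 4 were at 65.3 to 86.0 TPM in siCtrl and at 58.3 to 78.4 TPM in si*Vgll3*.

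The remaining synthetases were nearly level. *Tars*, for threonine, was at 170 TPM in siCtrl against 165 TPM in si*Vgll3*, an M of −0.04 [−0.07, −0.02]. *Wars*, for tryptophan, was at 73.3 TPM and 71.6 TPM, an M of −0.03 [−0.07, 0.003]. *Iars*, for isoleucine, was at 96.9 TPM and 95.9 TPM, an M of −0.01 [−0.04, 0.01]. *Gars* charges glycine tRNA in both the cytosol and mitochondria, and it was the most abundant synthetase. It was at 382 TPM and 396 TPM, an M of 0.05 [0.03, 0.07], the one synthetase above 0. M was below 0 for *Iars*, *Wars*, *Tars* and *Mthfd1l* with TPM, but above 0 for all 4 with CPM.

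**Figure D3:**
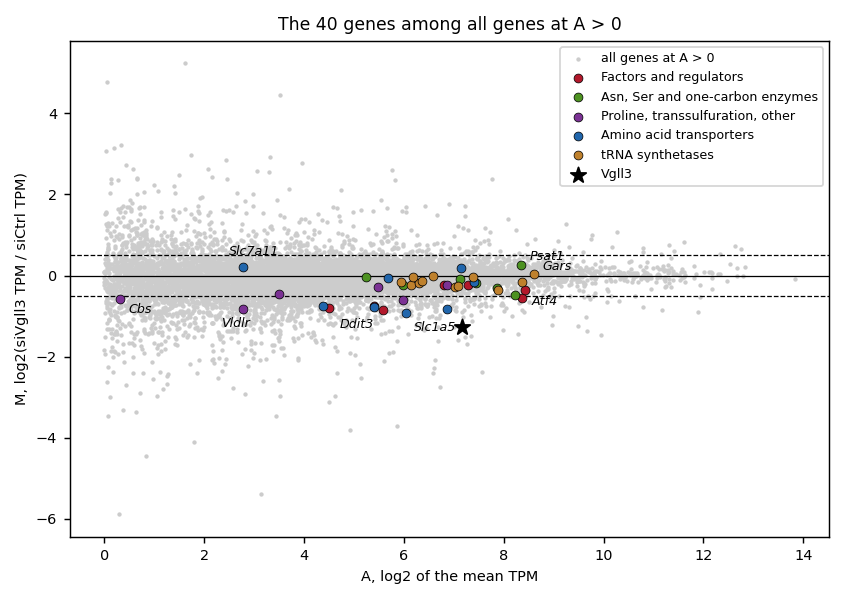
M (y axis) against A, log2 of the mean TPM (x axis), for all 11754 genes with A > 0 in grey, for the 40 genes in colour by role and for *Vgll3* as a star, with dashed lines at −0.5 and 0.5. *Cbs*, *Vldlr* and *Slc7a11* lie at low A, and most of the others lie to the right of A = 4, where the grey points spread less.

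Genes of the same pathway outside the 40 were taken from lists, whose median M ran from −0.15 to 0.09. The 8 other cytosolic synthetases had M from −0.03 to 0.15, with a median of 0.07 and 0 called. *Kars*, for lysine, was at an M of 0.02 and *Rars*, for arginine, at 0.11, the most abundant of these. With 3 scaffold proteins of the multisynthetase complex the list had 11 genes, a median of 0.09 and 0 called. The core TGATGNAA was in the promoters of 5 of the 8 members of the synthetase group with a listed promoter. It was in 0 of 5 listed promoters of the other cytosolic synthetases, which is near the 4.51% of all genes with a listed promoter. The members were listed as part of the ATF4 response, so the contrast is not independent of that choice. Whether the core bears on M was not tested. The 17 mitochondrial synthetases had a median M of 0.01, with 1 lower and 1 higher (5.88% each, against 11.4% and 5.73% of all genes). These were *Lars2* at −0.67 [−0.77, −0.56] and *Pars2* at 1.68 [1.38, 1.98], the latter with 129 reads in siCtrl. The most abundant, *Iars2* and *Rars2*, were at −0.15 and −0.07.

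Signalling upstream of ATF4 had a median M of −0.04 over 20 genes, with 2 lower (10%) and 1 higher (5%). Over all genes at A > 0 these shares were 11.4% and 5.73%. The eIF2 kinase genes *Eif2ak1*, *Eif2ak3* and *Eif2ak4* (the last encodes GCN2) had M of −0.18, −0.41 and −0.25, inside the threshold. *Eif2ak2*, the interferon-inducible kinase PKR, was lower at −0.56 [−0.62, −0.50]. *Ppp1r15b*, a subunit of the phosphatase that removes phosphate from eIF2, was lower at −0.65 [−0.68, −0.62], while its stress-induced counterpart *Ppp1r15a* was at 0.30. *Eif2s3x*, which encodes the gamma subunit of eIF2, was higher at 0.64 [0.61, 0.67], though a near-identical copy on the Y chromosome may share its reads. The most abundant were *Eif2s2*, another eIF2 subunit, at −0.08 and *Nfe2l2*, which encodes NRF2, at 0.12.

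Other reported ATF4 targets or partners went both ways. Of 19 genes at A > 0, 2 (10.5%) were lower and 3 (15.8%) were higher, against 11.4% and 5.73% of all genes. The median M of the 19 was −0.15. *Gpt2*, a mitochondrial alanine aminotransferase, was lower at −0.75 [−0.82, −0.68], and *Adm2* was lower at −0.67 [−0.92, −0.42]. *Gdf15*, a secreted stress cytokine, moved from 9.83 TPM in siCtrl to 24.7 TPM in si*Vgll3*, an M of 1.33 [1.22, 1.44]. *Cebpb*, a C/EBP partner of ATF4, was at 2.55 TPM and 7.82 TPM, an M of 1.62 [1.41, 1.83]. *Rab32* was the third higher gene, at 0.67, and was picked out once its value was known. The most abundant were *Sqstm1* at −0.23 and *Eif4ebp1* at −0.15. *Fgf21* was below the filter, with 24 and 11 reads.

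The other enzymes of amino acid and folate metabolism had a median M of 0.01 over 27 genes at A > 0. Of these, 3 (11.1%) were lower and 1 (3.70%) was higher, against 11.4% and 5.73% of all genes. Among the lower genes were the folate enzymes *Aldh1l1* at −1.02 [−1.11, −0.92] and *Aldh1l2* at −0.56 [−0.59, −0.53]. The most abundant were *Oat* at −0.14 and *Got2* at 0.30. The other amino acid transporters had a median M of −0.10 over 17 genes at A > 0. Of these, 4 (23.5%) were lower and 1 (5.88%) was higher. *Slc43a1*, *Slc38a7*, *Slc36a1* and *Slc7a3* were lower, at −0.92, −0.61, −0.58 and −0.53. *Slc38a6*, picked out once its value was known, was higher at 0.51 with 285 and 377 reads. The most abundant were *Slc38a10* at −0.22 and *Slc6a6* at −0.03.

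**Figure D4:**
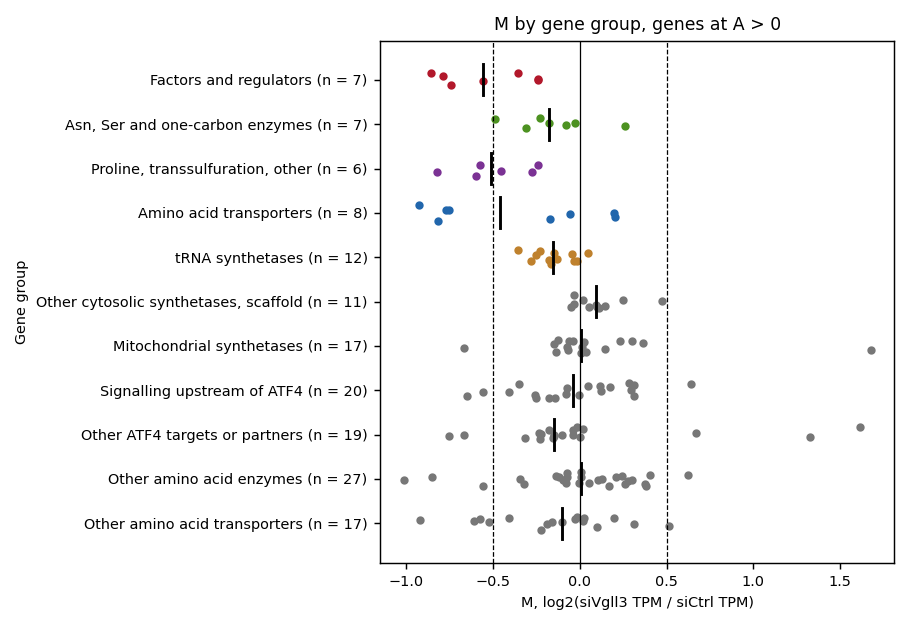
M (x axis) of each gene with A > 0, with a row for each role of the 40 genes (coloured) and for each list of other pathway genes (grey), black bars at the medians and dashed lines at −0.5 and 0.5. The medians of the coloured rows run from −0.56 for factors and regulators to −0.16 for tRNA synthetases, and those of the grey rows from −0.15 to 0.09.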

How the data were processed

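mRNA of 2 cultures was measured, 1 library each for siCtrl and si*Vgll3*. The authors prepared stranded TruSeq libraries, trimmed reads with Trimmomatic after FastQC, aligned them by HISAT2 to the mm10 genome and assembled annotated genes by StringTie. Tool versions and the annotation release are not given in the sources used here. The authors deposited raw read counts per gene, without normalization, and TPM per gene, which they scaled for length and library size. TPM was listed for 14158 genes.

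M, A and the Clopper-Pearson intervals were computed with Python 3.11.15, NumPy 2.4.6 and SciPy 1.17.1, with nothing added before the logarithm. DESeq2 1.42.0 and edgeR 4.0.16 gave scaling factors only, since 1 library per condition allows no test. The interval and the scaling steps were tested on simulated data. Depth limited precision little: the median half-width of the interval was 0.03 over the 40 genes, and 0.30 for *Cbs*. Over the 40 genes M from TPM was 0.05 to 0.06 below M from CPM.

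All 40 genes are described, with *Vgll3*. Of each list of other genes, the rule named the 2 most abundant. It also named up to 4 with the largest absolute M past 0.5 at A > 0. Fibroblast, leukocyte, endothelial and cardiomyocyte markers were given as sums, some with single genes. Of those single genes, *Thy1*, *Tagln*, *Ptprc* and *Adgre1* were outside the rule. The eIF2 kinases, *Ppp1r15a*, *Fgf21* and the overlapping genes *Ccdc24* and *Exosc6* were added once their values were known. The values of some genes that the rule names are not reported here. The members and lists were chosen with earlier results of these data known. Positions are RefSeq's for GRCm38.p6, and exon overlaps and 50-base words came from GENCODE vM21.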

Additional observations from a re-analysis of the deposited data

How the results depend on the processing

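No paired analysis was possible because there is a single library per arm, so no replicate could be left out either. The count of genes called lower was 11, and it stayed at 10 or 11 under the alternatives that kept the threshold of 0.5, while the count called higher was 0 under all 12 alternatives. With a threshold of 1 on M, 0 of the 40 genes were lower, against 3.27% of all genes, since the lowest M of the 40 was −0.93. Adding 1 TPM to both libraries, requiring A > 2 or requiring the whole counting interval below −0.5 each gave 10 lower genes, since *Cbs* was no longer called or tested. The median M of the 40 genes ran from −0.24 to −0.19, the last with CPM in place of TPM, where the median of all genes was 0.01. The number with M below 0 was 32 with CPM and 32 with M centred on all genes, against 36 with TPM. The M of single genes moved beyond the counting interval for 30 of the 40 with CPM, 28 with TMM scaling, 27 with DESeq2's size factors and 29 with centring, and no called gene changed sign.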
